A study of Mus musculus with 48 samples.

Results

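Rab GTPases are small membrane-bound switches of the Ras superfamily that direct vesicle traffic. Loaded with GTP by exchange factors (GEFs), a Rab recruits effectors that move, tether and fuse vesicles, GTPase-activating proteins (GAPs) return it to the GDP-bound form, and GDP dissociation inhibitors take it off the membrane. Different Rabs mark the Golgi, early, recycling and late endosomes and secretory vesicles, and exocrine and ductal cells of the pancreas use them for polarized secretion and recycling. The genes described here are the 59 protein-coding mouse genes whose symbol is Rab followed by a number, with or without a letter. They were found among 50600 genes listed in the count tables, and 50 of them were among the 13889 genes that passed the filter on low counts.

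The cells were mPDAC, a mouse pancreatic ductal adenocarcinoma line from the FVB/N x C57BL6 background labelled as 8-week-old. Its driver alleles are given in no source used here, and all samples are of this 1 line. Of 6 numbered cultures, 3 received 50 µM N6L, a pseudopeptide antagonist of the protein nucleolin, for 48 h (cultures 1, 2 and 3), and 3 were non-treated (cultures 1, 2 and 4). From each culture, emetine-treated cells were lysed, nuclei and mitochondria were spun out, and polyadenylated RNA was sequenced from the cytoplasmic lysate and from the pooled polysomal fractions of a sucrose gradient. The comparison asks which mRNAs changed in amount and which changed in loading onto polysomes, which is expressed as the translational index (TI), the polysome-to-cytoplasm ratio with N6L over that without. Each of the 12 libraries was the sum of 4 technical replicates and held 21178243 to 32662204 counts in the non-treated cytoplasm, 19519911 to 37612780 in non-treated polysomes, 23576921 to 44972333 in the N6L cytoplasm and 26642830 to 30474881 in N6L polysomes. Levels are given as CPM, the counts of a gene relative to a library's TMM-scaled total, for cultures 1, 2 and 4 without N6L and then 1, 2 and 3 with it, with the SD over 3 cultures. They are shares of a library, so that fewer cells of a kind and less RNA per cell cannot be told apart. The labels number the cultures without saying how far they were independent, and the p-values therefore measure only the spread between these samples.

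One library pair stood apart. In culture 3 with N6L, the log2 polysome-to-cytoplasm ratio had an SD of 0.70 over the Rab genes, against 0.29 to 0.42 in the other 5 cultures, and an SD of 1.03 over 12111 protein-coding genes, against 0.42 to 0.66. In addition, 3 of the 4 technical replicates titled as culture 2 of the N6L cytoplasm are described as sample 1. Their counts differed from the remaining replicate of culture 2 by about what sampling of reads alone gives (a chi-square over its degrees of freedom of 1.01 to 1.04) and from culture 1 by more (11.2 to 11.4), and they were kept in culture 2. As to the label, Krt8, Krt18 and Krt19, keratins of ductal epithelium, stood at 2823 ± 206, 3131 ± 527 and 1623 ± 311 CPM in the non-treated cytoplasm, whereas Epcam and Cldn4, also on the list of 9 ductal markers, were near 0. Of the 7 ductal markers tested, Krt7 was lower with N6L in the cytoplasm, at 351.0 ± 94.6 and 179.6 ± 34.4 CPM (log2 change -0.97, adjusted p = 0.00829 by edgeR), and Sox9 higher, at 30.6 ± 4.80 and 65.1 ± 1.56 CPM (1.09, adjusted p = 0.00230). The summed ductal markers came to 8168 ± 1139 CPM without N6L and 7191 ± 720 CPM with it in the cytoplasm. Of the 10 acinar markers, 6 had no count in any library, and the most abundant, Cela1, ranged from 27.6 to 82.7 CPM. Acinar Bhlha15 was higher with N6L in the cytoplasm, at 1.05 ± 0.11 and 2.37 ± 0.13 CPM (1.18, adjusted p = 0.0441), as was endothelial Pecam1, at 0.093 ± 0.043 and 0.36 ± 0.072 CPM (1.93, adjusted p = 0.0352). The summed leukocyte, endothelial and fibroblast markers did not exceed 3.71, 1.18 and 1.18 CPM in any library, and 5 of 6 islet markers were at 0 throughout. The part of these markers in the Rab results was not tested.

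Rab proteins of one number, here called paralogs, are close in amino acid sequence, so the first matter is whether reads can tell them apart. The stretch that encodes the P-loop, the phosphate-binding loop of all Ras-like GTPases, is among the most conserved and is shown for the paralogs on which the results turn. The 24 bases lie in the coding sequence, read 5′ to 3′ from the GENCODE vM21 transcript, and capitals mark bases that differ from the first paralog of each group.
Rab5a: ggagagtctgctgttggcaaatca
Rab5b: ggagagtctgcAgtGggGaaGtcT
Rab5c: ggCgagtctgcCgtGggcaaGtcC
Rab6a: ggagagcagagcgttggaaagacg
Rab6b: ggGgagcagagcgtCggGaagacg
Rab33a: ggggattccaacgtgggcaagacc
Rab33b: ggCgaCtcGaacgtgggcaagacG
Even here Rab5b and Rab5c each differed from Rab5a at 5 of 24 bases, Rab6b from Rab6a at 3, and Rab33b from Rab33a at 4. None of these genes shared a window of 50 bases with a paralog. Sharing was with pseudogenes and overlapping transcripts instead: 13% of the windows of Rab5b occurred in Gm13991, 14.5% of those of Rab7 in Rab7-ps1 and 7.87% of those of Rab9 in Rab9b-ps1. The levels of Rab43 and Rab4b are uncertain, since 90.4% of the Rab43 windows also lie in Gm45140 and 80.3% of the Rab4b windows in Gm21983. On the GRCm38 assembly, Rab6b lies at chr9:103111787-103185276 on the plus strand, Rab6a at chr7:100607410-100641268 (plus), Rab5a at chr17:53479234-53507680 (plus), Rab5b at chr10:128677175-128696264 (minus), Rab5c at chr11:100715009-100738215 (minus) and Rab39b at chrX:75572046-75578231 (minus).

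The 59 genes spanned a wide range of levels. In the non-treated cytoplasm, 14 averaged at least 100 CPM, 23 between 10 and 100, 6 between 1 and 10, and 16 less than 1. Per kilobase of transcript, the scale on which genes can be compared, Rab7, which takes late endosomes to lysosomes, was highest at 137 ± 7.89 CPM per kb, and Rab5c, of the early endosome, followed at 131 ± 9.50. These 2 levels differed by less than their SDs. Next came the ER-to-Golgi Rabs, Rab1b at 93.4 ± 13.6, Rab2a at 86.8 ± 11 and Rab1a at 77.3 ± 13.1 CPM per kb, of which neighbours again differed by less than the SD of either. The other 9 genes were too low to be tested. Rab3c and Rab39 had no count in any library, and Rab44, Rab9b, Rab15, Rab26, Rab40b, Rab19 and Rab25 had 3, 8, 40, 45, 54, 70 and 92 counts over all 12 libraries together. Rab25, an epithelial relative of Rab11, and Rab26, found in secretory granules, were thus nearly absent from these reads.

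The summed level of all Rab genes differed between treatments by less than the SD over cultures. It was 3532, 3180 and 3217 CPM in the non-treated cytoplasm and 3191, 3408 and 3198 CPM with N6L, and 3519 ± 113 against 3619 ± 236 CPM in polysomes. None of the 5 genes with the highest level per kb was called in the cytoplasm. Rab7 had 313.0, 293.5 and 279.1 CPM without N6L and 329.2, 322.7 and 318.8 with it, a log2 change of 0.13 ± 0.13 (SE) that edgeR's quasi-likelihood test did not call (adjusted p = 0.459). The 2 groups of cultures did not overlap all the same. Rab1a, at 205.5 ± 34.7 and 220.2 ± 27.4 CPM, had a value of 0.10 ± 0.18 (adjusted p = 0.694). Rab1b, Rab5c and Rab2a had values of -0.51, -0.35 and -0.32, and in Rab1b and Rab5c the groups did not overlap either.

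Below this steady total, single members shifted against each other. In the cytoplasm, 9 Rab genes rose and 3 fell with N6L at an adjusted p under 0.05, while 14.5% of all tested genes were called higher and 13.8% lower. The share of Rab genes called, 24.0% of 50, was thus below the 28.3% of all genes, and their median log2 change was 0.06 against 0.04. Without overlap between the groups of cultures, 16 Rab genes were higher and 11 lower, where 29.3% and 25.6% of all genes were. The rises were in secretory Rabs (Rab37, Rab27b, Rab27a, Rab8b), early endosomal Rabs (Rab5b, Rab5a), Golgi Rabs (Rab6b, Rab2b) and Rab7b, and the falls in Rab39b, Rab4a and Rab24. Scaled by library size alone, which moved the median of all genes from 0.04 to 0.19, 12 were called higher and 1 lower, and with the culture number as a block 9 higher and 5 lower. The count fell to 2 without N6L culture 2 and to 5, 7 and 5 without non-treated culture 1, 2 or 4, and the share of all genes called fell too, to 9.24% and to 16%, 22.4% and 15.5%. Rab6b and Rab39b were called under each alternative in which they were tested, and the other 10 genes kept their call in between 7 (Rab24) and 14 (Rab5b) of up to 15. The counts by compartment below stand against the same 14.5% and 13.8% of all genes, and no compartment was tested against the rest.

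**Figure D1:**
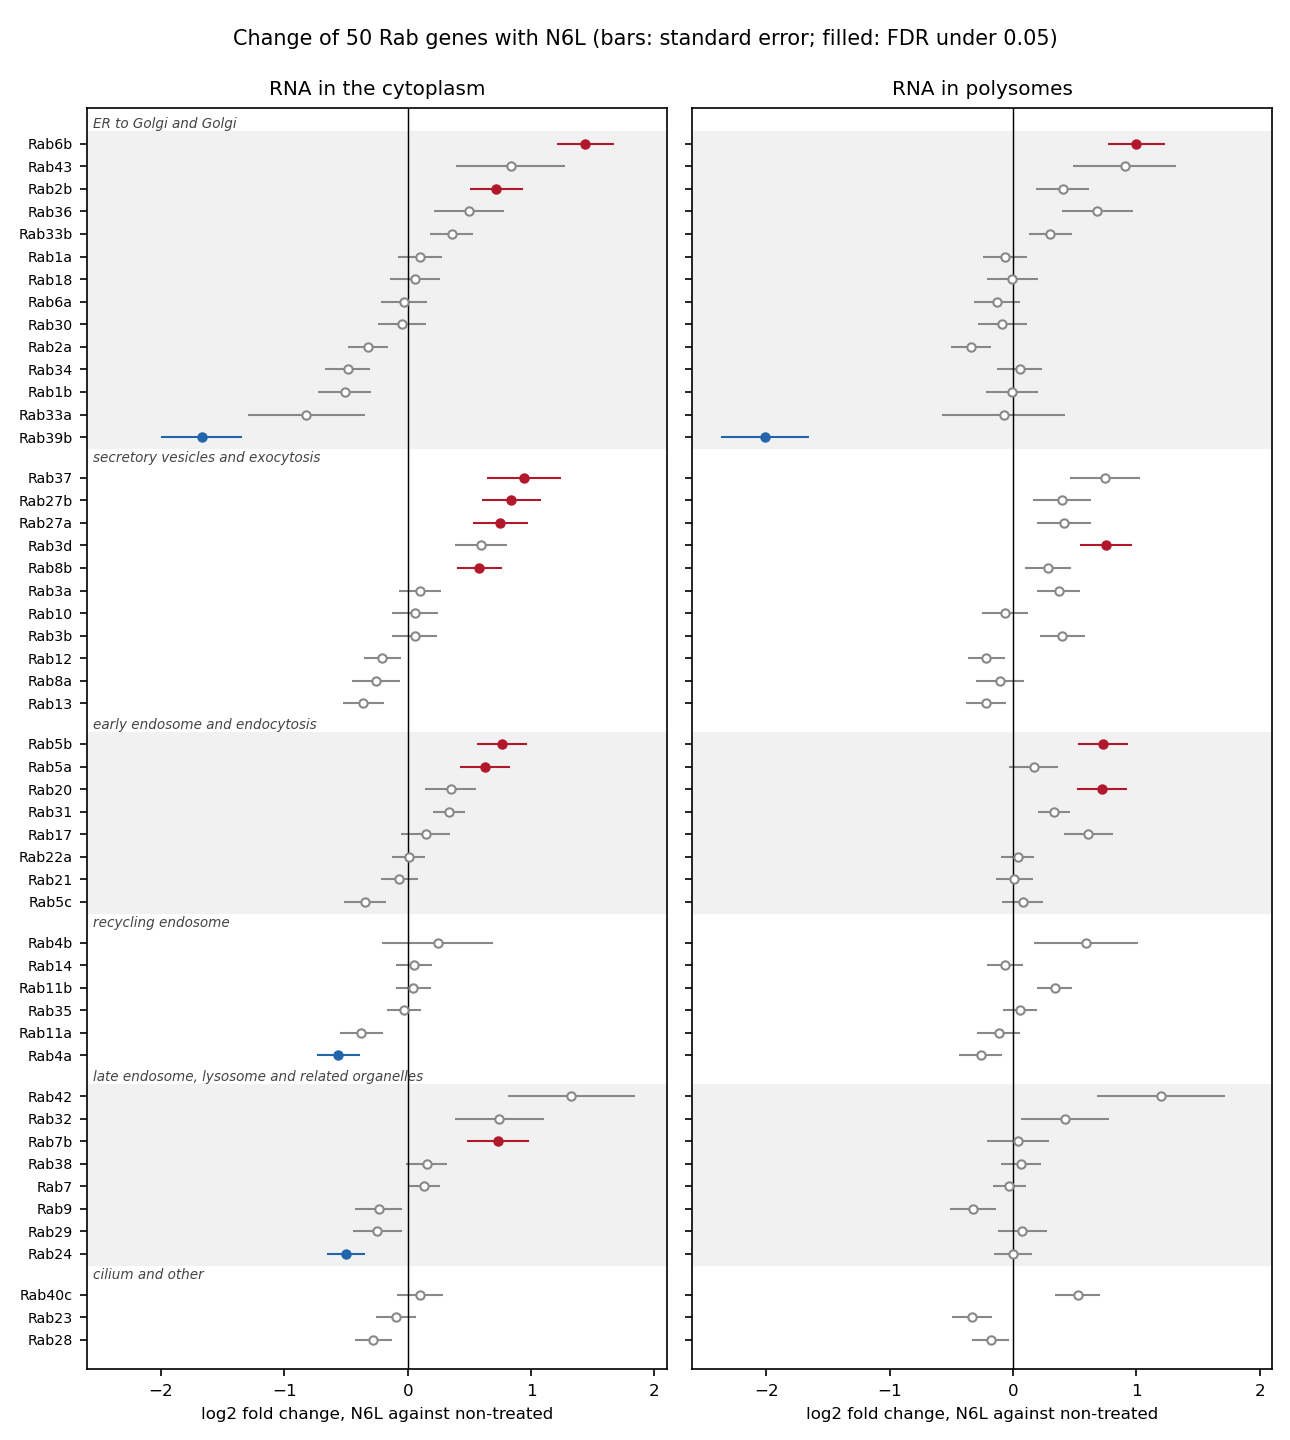
Log2 fold change with N6L (x axis) of the 50 tested Rab genes, grouped by the compartment they are known for (y axis), in cytoplasmic RNA (left) and polysomal RNA (right); points are fitted values, bars standard errors, and filled points had an adjusted p under 0.05 by edgeR. Filled points are scattered over the compartments, 9 to the right and 3 to the left of 0 in the cytoplasm, and 4 to the right and 1 to the left in polysomes.

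Among the 14 tested Rabs of the ER and Golgi, 2 rose and 1 fell in the cytoplasm. Rab6b, the less abundant form of the Golgi Rab6 that is best known from neurons, had 1.56, 1.498 and 1.65 CPM without N6L and 3.21, 4.95 and 4.54 CPM with it. All treated cultures were above all non-treated ones, and the rise was 1.44 ± 0.23 on the log2 scale (adjusted p = 0.00174). Rab2b, which acts between the ER and the Golgi, went from 10.7, 9.31 and 8.51 to 15.3, 17.3 and 14.4 CPM, again without overlap (0.72 ± 0.21, adjusted p = 0.0236). Its exons overlap those of Gm43766 and Tox4 on the opposite strand, and no source used here says whether counting used the strand. Rab39b, a Golgi-associated Rab whose human counterpart is mutated in X-linked intellectual disability with parkinsonism, had the largest fall of the family. Its 2.08, 2.00 and 1.15 CPM without N6L compared with 0.745, 0.606 and 0.326 CPM with it, which was -1.67 ± 0.33 on the log2 scale (adjusted p = 0.00394). At about 1 CPM it is a rare transcript in these cells, and part of its exons lies opposite Gm15063. The abundant Golgi Rabs gave values nearer to 0 or below: Rab1b -0.51 ± 0.21 (adjusted p = 0.0837), Rab34 -0.49 ± 0.18 (0.0568), Rab2a -0.32 ± 0.16 (0.145), Rab6a -0.03 ± 0.18 (0.914), Rab18 0.06 ± 0.20 (0.840) and Rab1a 0.10 ± 0.18 (0.694). None of them was called.

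Among the 11 tested Rabs of secretory vesicles and exocytosis, 4 rose and none fell, against 14.5% and 13.8% of all genes, with a median of 0.10 over the 11. Rab27a and Rab27b dock secretory granules and exosome-bearing endosomes at the plasma membrane, and both rose. Rab27b, the more abundant in CPM, went from 70.7, 70.3 and 52.6 to 86.0, 143.9 and 116.2 CPM (0.84 ± 0.24, adjusted p = 0.0200), and Rab27a from 11.5, 12.6 and 17 to 17.6, 26.2 and 24.9 CPM (0.75 ± 0.22, adjusted p = 0.0237). In neither gene did the groups overlap, although the highest non-treated culture of Rab27a lay just under the lowest treated one. Rab8b, which carries cargo to the plasma membrane and the cilium, went from 8.18, 9.31 and 8.86 to 12.4, 14.6 and 12.4 CPM (0.58 ± 0.18, adjusted p = 0.0297). With an offset for transcript length and GC content, its change was 0.23 (adjusted p = 0.279), that of Rab27a 0.53 (0.111) and that of Rab27b 0.44 (0.0433), so that only the last was still called. Rab37, known from mast cell granules, was near the limit of detection, with 0.824, 0.499 and 0.451 CPM against 1.02, 1.27 and 1.21 CPM (0.94 ± 0.30, adjusted p = 0.0330), and with the culture number as a block it was not called (0.74, adjusted p = 0.0855). Rab3d, a Rab of exocrine secretory granules, had 19.8, 22.0 and 28.8 against 34.4, 34.5 and 37.4 CPM, and its 0.59 ± 0.21 missed the threshold narrowly (adjusted p = 0.0502).

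Of the 8 early endosomal Rabs, all tested, 2 rose and none fell, a share of 25% against the 28.3% of all genes called. These were 2 of the 3 Rab5 genes, which drive fusion of early endosomes. Rab5b went from 38.9, 35.6 and 23.2 to 54.8, 55.6 and 55.4 CPM (0.76 ± 0.20, adjusted p = 0.0150), and the 3 treated cultures lay within 1 CPM of each other. Rab5a went from 67.1, 67.0 and 47.4 to 85.6, 100.8 and 94.2 CPM (0.63 ± 0.20, adjusted p = 0.0323). Rab5c, the most abundant of the 3, had 254.8, 229.9 and 265.4 CPM without N6L and 204.5, 188.2 and 196.5 with it. Every treated culture was below every non-treated one, but the fitted change of -0.35 ± 0.17 was not called (adjusted p = 0.130).

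Among 6 tested Rabs of the recycling endosome, only Rab4a, which returns receptors quickly to the surface, was called. Its 28.5, 27.7 and 35.6 CPM compared with 22.4, 20.3 and 19.5 CPM with N6L, a log2 change of -0.56 ± 0.18 (adjusted p = 0.0294), and with the offset for length and GC one of -0.20 (adjusted p = 0.163). It kept its call in 9 of 15 alternatives. Of the 8 tested late endosomal and lysosomal Rabs, Rab7b, which works between late endosomes and the trans-Golgi, rose from 3.69, 2.72 and 2.35 to 5.49, 4.10 and 5.17 CPM (0.73 ± 0.25, adjusted p = 0.0422). With the offset its change was 0.39 (adjusted p = 0.153), and it kept its call in 8 of 15 alternatives. Rab24, an atypical Rab linked to autophagy, fell from 73.5, 73.5 and 75.5 to 48.9, 52.0 and 56.2 CPM (-0.50 ± 0.15, adjusted p = 0.0264). The non-treated cultures of Rab24 were closely alike and all above the treated ones. Its call was kept in 7 of 15 alternatives and lost, among others, in 5 of the 6 that left out a culture. With the offset its change was 0.03 (adjusted p = 0.866), and its exons overlap those of Prelid1 on the opposite strand. None of the 3 tested Rabs of the cilium and other sites was called (-0.28 to 0.10).

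**Figure D2:**
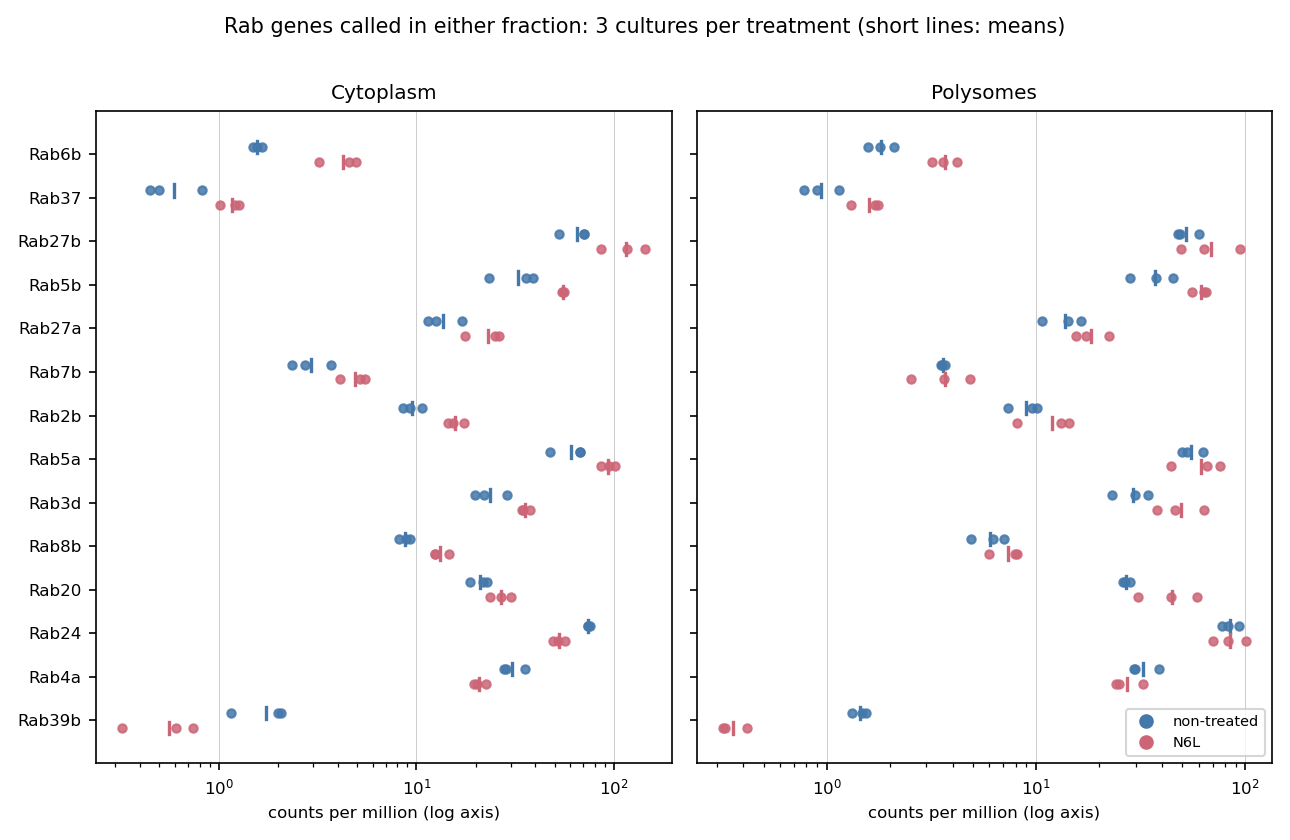
Level in CPM (x axis, log scale) of each Rab gene called in the cytoplasm or in polysomes (y axis, ordered by cytoplasmic change) in the cytoplasm (left) and polysomes (right); points are single cultures, 3 per treatment, blue non-treated and red N6L, and short lines their means. The groups of Rab6b, Rab39b, Rab5b, Rab3d, Rab20 and Rab37 stand apart in both fractions, whereas those of the other genes shown stand apart in the cytoplasm and overlap in polysomes. The genes shown were chosen by their calls. Of all genes, 29.3% were higher and 25.6% lower without overlap in the cytoplasm, and 13.7% and 11.9% in polysomes.

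In polysomal RNA, 4 Rab genes were higher and 1 lower with N6L, and 6.01% and 3.66% of all genes were. The share called, 10%, was close to the 9.67% of all genes, and the median change was 0.06 against 0.0008. Without overlap between cultures, 10 were higher and 4 lower, where 13.7% and 11.9% of all genes were. Rab6b had 1.80, 1.57 and 2.11 CPM in non-treated polysomes and 3.19, 4.22 and 3.60 CPM with N6L (1.00 ± 0.23, adjusted p = 0.0175 by edgeR's quasi-likelihood test). Rab39b had 1.54, 1.47 and 1.33 against 0.319, 0.418 and 0.327 CPM (-2.01 ± 0.36, adjusted p = 0.00541). Both therefore moved in polysomes in the direction they took in the cytoplasm, as did Rab5b, with 37.6, 45.2 and 28.2 against 55.6, 65.0 and 63.7 CPM (0.73 ± 0.20, adjusted p = 0.0376). Rab3d rose from 23.1, 29.6 and 34.4 to 37.8, 46.4 and 63.3 CPM (0.76 ± 0.21, adjusted p = 0.0388). Rab20, found on maturing phagosomes and endosomes, rose from 26.6, 26.1 and 28.3 to 30.7, 44.1 and 58.9 CPM (0.72 ± 0.20, adjusted p = 0.0412). With the offset for length and GC, Rab3d was no longer called (0.61, adjusted p = 0.0557), and with the culture number as a block Rab20 was not (0.50, adjusted p = 0.0974). In Rab3d and Rab20 the highest value was that of N6L culture 3, the one that stood apart, and without it only Rab6b and Rab39b were among the 2 genes called and Rab20 stood at 0.47. Without non-treated culture 1 or N6L culture 2 the count was 1, without non-treated culture 2 or 4 it was 2 and 3, and with the polysomal libraries fitted alone it was 1. The share of all genes called was then 1.44% or 1.04%, 6.77% and 4.44%, and 2.46%.

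More Rab genes were called between the 2 fractions with N6L than without, but the TI, which compares the 2 treatments directly, was called for no Rab gene (below). In non-treated cells, no Rab gene was called by edgeR (4 of 50 had an unadjusted p under 0.05, as did 13.4% of all genes, and DESeq2 also called 0), where 0.0% of all genes were called higher in polysomes and 0.209% lower. With N6L, 10 were called higher in polysomes and 3 lower, against 18.4% and 20.6% of all genes, so that 26.0% of Rab genes were called against 39.0% of all. Higher in polysomes were Rab34 (0.92 ± 0.18), Rab17 (0.90 ± 0.20), Rab1b (0.80 ± 0.21), Rab29 (0.76 ± 0.20), Rab20 (0.73 ± 0.20), Rab24 (0.69 ± 0.15), Rab5c (0.68 ± 0.17), Rab40c (0.58 ± 0.19), Rab3b (0.51 ± 0.18) and Rab11b (0.40 ± 0.14). Lower were Rab8b (-0.84 ± 0.18), Rab27b (-0.74 ± 0.24) and Rab5a (-0.60 ± 0.20), with adjusted p-values from 0.00469 to 0.0377 over the 13. The 2 fractions of a culture come from one lysate, and with the culture as a block 18 were higher and 7 lower, 25 of 50 in all, where the block raised the share of all genes called to 53.7%. Without N6L culture 3 the count was 4 and without N6L culture 2 it was 2, where 11.7% and 8.22% of all genes were called. Without N6L culture 3, Rab1b stood at 0.51 and Rab40c at 0.33. By library size alone it was 7 higher and 4 lower.

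The polysome-to-cytoplasm difference of Rab genes ran with the GC content and, inversely, with the length of their transcripts. Over the 50 tested genes, Spearman's correlation between GC content and the fitted log2 difference was 0.67 without N6L and 0.75 with it, and over 12111 protein-coding genes it was 0.47 and 0.57. With transcript length it was -0.28 and -0.45 over the Rab genes and -0.50 and -0.66 over the protein-coding genes. These are descriptions, since the genes share the same libraries. By culture, the correlation with GC over the Rab genes was 0.39, 0.62 and 0.62 without N6L and 0.51, 0.80 and 0.71 with it. Some paralogs follow this order and others do not, and not every pair is listed here. Rab1a, with 40.8% GC, stood at -0.38 ± 0.18 in polysomes with N6L and Rab1b, with 58.9%, at 0.80, while Rab5a, Rab5b and Rab5c, with 42.3%, 49.1% and 54.5%, stood at -0.60, 0.15 and 0.68. Rab8a, with 49.4%, was at 0.50 ± 0.20 and Rab8b, with 40.6%, at -0.84. Against this order, Rab2b, with 46.9%, was at -0.39 ± 0.21 and Rab2a, with 44.4%, at -0.04 ± 0.16. Rab7b, with 49.1%, was at -0.41 ± 0.25 and Rab7, with 48.7%, at 0.0051 ± 0.13. Rab3a, with 55.0%, was at 0.44 ± 0.17 and Rab3b, with 49.3%, at 0.51 ± 0.18, apart by less than either SE. The 25 Rab genes above the median GC of 48.9% had a median of 0.47 with N6L, and the other 25 one of -0.18. With an offset for transcript length and GC content, 10 Rab genes were again called higher in polysomes and 0 lower, but mostly other genes than before, and the share of all genes called in either direction was 16.7%. Of the 10 named above, Rab3b (0.72), Rab11b (1.16) and Rab17 (0.35) kept their call at other values, and Rab34 (0.23), Rab1b (0.19), Rab29 (0.25), Rab20 (0.02), Rab5c (0.20) and Rab40c (0.19) lost it, as did Rab5a (-0.29). With the culture block added to the offset, Rab34 (0.24, adjusted p = 0.0407) and Rab5a (-0.30, adjusted p = 0.0397) were called again. The values of Rab24, Rab8b and Rab27b turned to -0.11, 0.04 and 0.46, and with the block Rab27b was called higher in polysomes (0.45, adjusted p = 0.00457). Rab17, a Rab of polarized epithelia, was called under each of the 16 alternatives, with values as low as 0.35.

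**Figure D3:**
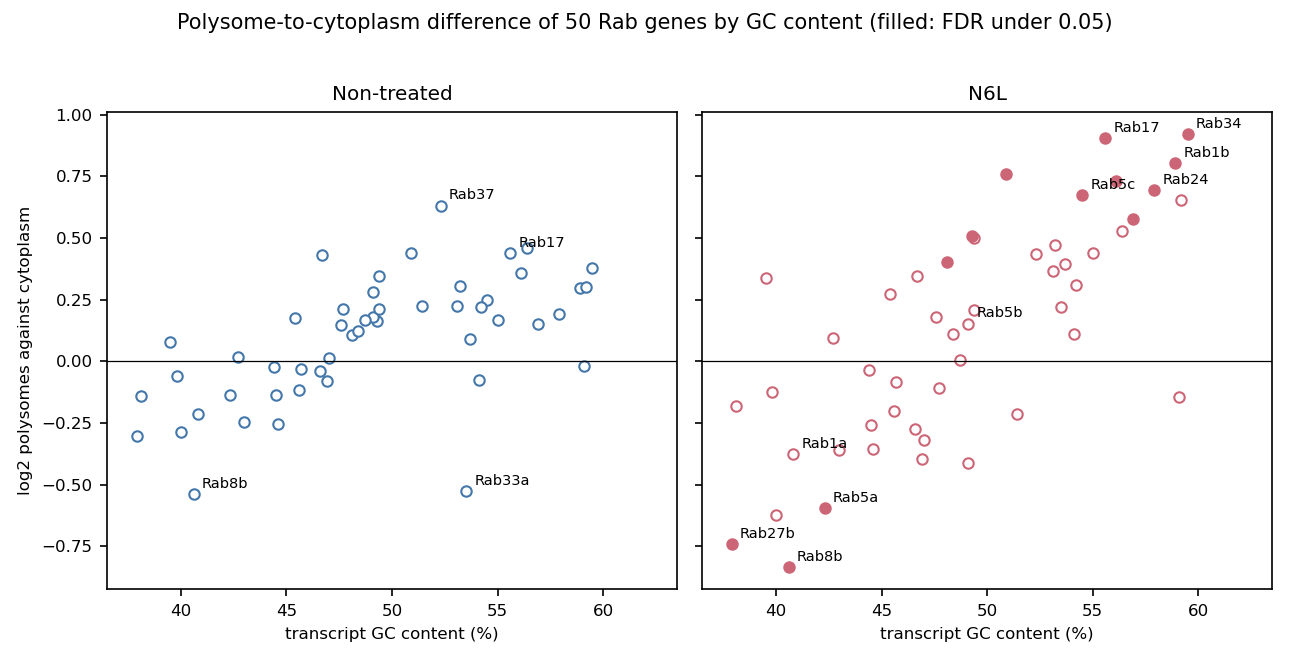
GC content of the transcript in percent (x axis) against the fitted log2 difference between polysomes and cytoplasm (y axis) for 50 Rab genes in non-treated (left) and N6L-treated cells (right); filled points had an adjusted p under 0.05. Points climb from left to right in both panels, and with N6L they reach from -0.84 (Rab8b) to 0.92 (Rab34).

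The TI, which tests whether the change in polysomes departs from that in the cytoplasm, was called for no Rab gene, and 0.0% of all genes were called higher and 0.0% lower. By edgeR, 1 of 50 Rab genes, Rab24, had an unadjusted p under 0.05, where 7.73% of all genes did. The lowest adjusted p of a Rab gene was 0.555, and DESeq2 called 0. The genes called in only one fraction are therefore not shown to differ between fractions. Nor are those called between fractions in only one treatment shown to differ between treatments. Without overlap between cultures, 5 Rab genes had a higher and 5 a lower ratio with N6L, where 15.3% and 14.4% of all genes did. The highest log2 TI values were those of Rab33a (0.74 ± 0.69), Rab34 (0.54 ± 0.26), Rab1b (0.51 ± 0.30) and Rab24 (0.50 ± 0.22). In this order, their changes were -0.82, -0.49, -0.51 and -0.50 in the cytoplasm and -0.08, 0.05, -0.006 and -0.001 in polysomes. The TI subtracts the cytoplasmic change, so a high TI goes with such a fall by construction. Rab33a, a Golgi Rab, was present at under 1 CPM. Rab24 had log2 polysome-to-cytoplasm ratios of 0.07, 0.18 and 0.31 without N6L and 0.52, 0.67 and 0.84 with it. Rab34, which places lysosomes and acts in cilium formation, had 0.34, 0.37 and 0.43 against 0.45, 0.81 and 1.40. In both genes every treated culture was above the non-treated ones, but in Rab34 by a narrow gap for culture 1. Rab1b had 0.22, 0.40 and 0.27 against 0.33, 0.68 and 1.24, with an overlap at culture 1. In Rab24, Rab34 and Rab1b the highest ratio was that of N6L culture 3, the one that stood apart. Their TI values and the order of these rest in part on that culture, and values without it are not given here.

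The lowest TI values were those of Rab7b (-0.69 ± 0.36), Rab5a (-0.46 ± 0.28), Rab27b (-0.44 ± 0.34) and Rab6b (-0.44 ± 0.33). These genes rose in the cytoplasm, but the TI subtracts the cytoplasmic change, so that both values share the same libraries and a low TI goes with such a rise by construction. The ratio of Rab5a was -0.10, -0.35 and 0.07 without N6L and -0.38, -0.42 and -1.09 with it, and that of Rab7b was -0.05, 0.36 and 0.63 against -0.17, -0.17 and -1.01. In both, culture 3 with N6L was the lowest by a wide margin. Rab27b had -0.23, -0.52 and -0.14 against -0.43, -0.61 and -1.24, so that its groups overlapped, and culture 3 with N6L was again the lowest. The TI values of Rab7b, Rab5a and Rab27b and their order rest in part on that culture, and values without it are not given here. Among the 25 genes above the median GC, the median TI was 0.27 and 19 were above 0, and among the other 25 the median was -0.10 and 5 were above 0. The TI ran with GC over all 12111 protein-coding genes as well. Spearman's correlation was 0.474 there and 0.625 over the Rab genes. With transcript length it was -0.604 and -0.432.

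A ratio of 2 paralogs within a library does not depend on how libraries are scaled, but it can still run with transcript length and GC content. Over all protein-coding genes the cytoplasmic change ran with transcript length (Spearman's correlation 0.53). No offset for length and GC was applied to these ratios. Over 15 pairs in the cytoplasm, the ratio with N6L minus that without ranged on the log2 scale from -1.40 for Rab6a to Rab6b to 1.14 for Rab5b to Rab5c. The Rab6a to Rab6b ratio was 6.75, 6.59 and 6.45 without N6L and 5.61, 5.03 and 4.95 with it, as Rab6b rose at a Rab6a level of 158.5 ± 13.6 and 155.2 ± 10.9 CPM. The Rab5b to Rab5c ratio was -2.71, -2.69 and -3.51 without N6L and -1.90, -1.76 and -1.83 with it. The Rab33a to Rab33b ratio, -6.01, -6.00 and -5.23 against -7.24, -7.08 and -6.35, fell by 1.15, but it rests on a Rab33a level under 1 CPM against 29.7 ± 2.51 and 38.0 ± 4.02 CPM for Rab33b. In these 3 pairs the groups did not overlap, and an exact two-sided permutation test gave p = 0.1, the smallest that 3 cultures against 3 allow, so that no pair can reach 0.05 (adjusted over 15 pairs 0.15). The longer transcript gained on its paralog in each: Rab6b (5007 against 3214 bases), Rab5b (3180 against 1915) and Rab33b (3492 against 1158). The part of length in these ratios was not tested. The groups were apart in 10 of the 15 pairs in the cytoplasm and in 6 in polysomes, and nothing is read from these counts, since no share over other gene pairs was computed. In polysomes the Rab6a to Rab6b ratio differed by -1.12 and the Rab5b to Rab5c ratio by 0.70, while the Rab33a to Rab33b ratio, with overlapping groups, differed by -0.19. Rab27a and Rab27b, which both rose, kept a ratio of -2.24 ± 0.53 without and -2.32 ± 0.12 with N6L in the cytoplasm.

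**Figure D4:**
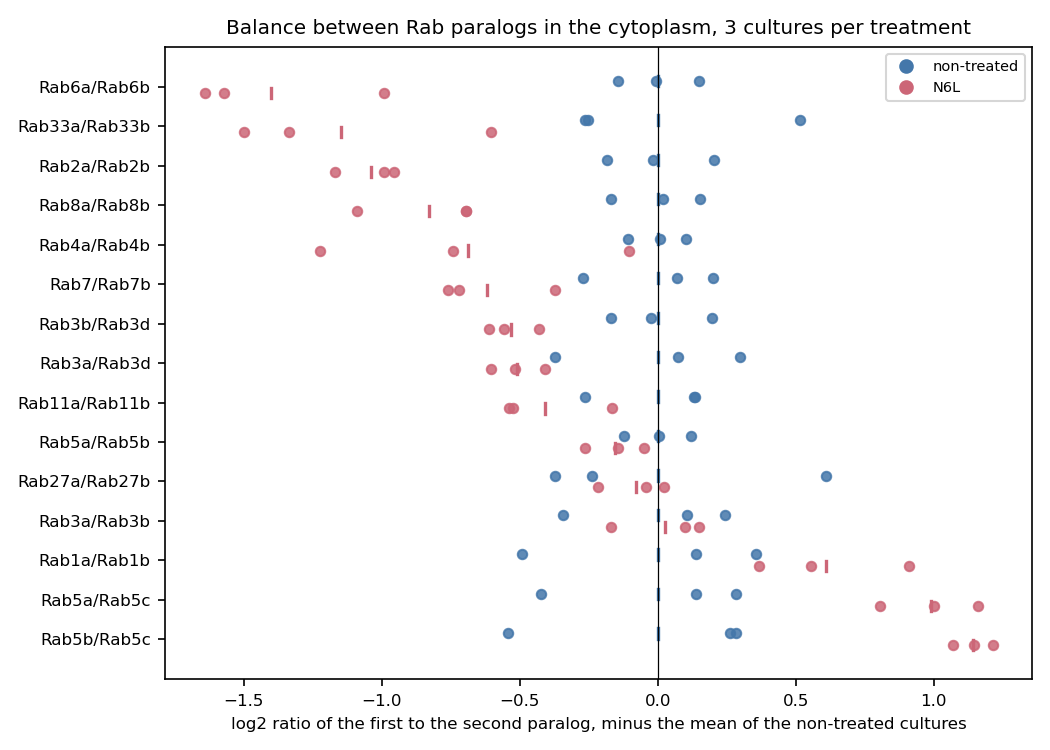
Log2 ratio of the first to the second named paralog in the cytoplasm, minus its mean over the non-treated cultures (x axis), for 15 pairs of Rab paralogs (y axis); points are single cultures, 3 per treatment, blue non-treated and red N6L, and short lines are means. The treated cultures lie left of the non-treated ones for Rab6a to Rab6b (mean -1.40) and right of them for Rab5b to Rab5c (mean 1.14).

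Proteins that act on Rabs were taken from lists written with earlier results of these data known. Among 42 tested GEF genes 12 rose and 3 fell in the cytoplasm, with a median of 0.24, where 14.5% of all genes were called higher and 13.8% lower with a median of 0.04. Dennd4c, a DENN-domain exchange factor for Rab10, rose from 9.94 ± 4.38 to 54.4 ± 3.94 CPM (2.45 ± 0.40, adjusted p = 0.00179 by edgeR), and Dennd3, one for Rab12, by 1.53 ± 0.22. Trappc1, a subunit of the TRAPP complex that activates Rab1, fell by 0.73 and Dennd2d by 0.68. Among 38 GAP genes 11 rose and 0 fell, with a median of 0.35, led by Tbc1d8b (2.06 ± 0.35) and Tbc1d15 (1.07 ± 0.28), of which the latter acts on Rab7. Among 45 effector genes 17 rose and 1 fell, with a median of 0.48. Over all protein-coding genes the cytoplasmic change ran with transcript length (Spearman's correlation 0.53), and the part of length in these 3 lists was not tested.

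The 2 effector genes with the largest rises were Sytl5 (2.096 ± 0.41) and Sytl2, both of which bind Rab27. Sytl2 went from 52.8 ± 11.3 to 139.0 ± 29.3 CPM (1.40 ± 0.25, adjusted p = 0.00245 by edgeR), beside the rises of Rab27a and Rab27b. Rabepk, an effector of Rab9, was the one that fell (-0.99 ± 0.16, adjusted p = 0.00169). In polysomes the same lists had 4 genes called higher and 1 lower for GEFs, 0 called for GAPs and 1 higher and 2 lower for effectors, where 6.01% of all genes were called higher and 3.66% lower, and no member of these 3 lists was called for the TI. With N6L, 23 of 45 effector genes were called lower in polysomes than in the cytoplasm and 3 higher (median -0.55), where 20.6% and 18.4% of all genes were (median 0.03). This difference also ran with transcript length over all protein-coding genes (-0.66, above), and the part of length in the effector list was not tested. Beside these, 4 of 25 Arf and Arl genes rose and 2 fell in the cytoplasm (median 0.19), a share of 24.0% against 28.3% of all genes, among them Arl10 (1.03), Arl4d (0.92), Arl2 (-0.9998) and Arf5 (-0.73). The difference between this family and the Rab genes was not tested.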

How the data were processed

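The deposited files hold raw counts per Ensembl gene, not normalized, for 48 technical replicates of 12 libraries. Per the submitters' processing notes the authors used bcl2fastq 2.18.0.12, STAR and HTSeq 0.5.3 with the mm10 genome; no source used here gives the annotation release, the strand setting or the treatment of multi-mapping reads. Libraries were prepared with a strand-specific polyA+ kit. Technical replicates were summed, and symbols, positions, lengths and GC content were taken from GENCODE vM21 (GRCm38), which holds 50376 of the 50600 identifiers (1 complete principal coding transcript per gene, the longest).

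Counts were filtered with filterByExpr, scaled by TMM and fitted over all genes with the quasi-likelihood test of edgeR 4.0.16 in R 4.3.3, with a mean for every fraction and treatment and without a block. Adjusted p-values (Benjamini-Hochberg over 13889 genes, limit 0.05) come from this fit unless stated. The TI was 1 contrast of the fit. CPM ratios used a prior count of 2. DESeq2 1.42.0 was an alternative, with the others named in the closing section. In counts simulated for these libraries, edgeR recovered 59% of genes changed by log2 1 and 90% of those changed by log2 2 in the cytoplasmic comparison, 54% and 93% in the polysomal one, and 13% and 74% for the TI, with 200 of 13889 genes changed.

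The 2 fractions of a culture are paired through their lysate. Over genes, the correlation of the 2 libraries' deviations from their group means was 0.364 for culture 1, 0.452 for culture 2 and 0.645 for culture 4 without N6L, and with N6L 0.037 for culture 1, 0.199 for culture 2 and 0.229 for culture 3. The members, the lists and the tests were chosen with earlier results of these data known. Values per culture were given for the Rab genes with the largest called changes in the cytoplasm (up to 10 each way) and in polysomes (up to 5), the 4 highest and lowest TI values, the 5 highest levels per kb and the 3 paralog pairs that differed most, and for other lists the 2 largest called changes each way. Protein sequences were not used here. Some listed genes are not reported here.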

Additional observations from a re-analysis of the deposited data

Results flagged for a closer look

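Rab6b had a polysome-to-cytoplasm ratio of one sign in the cultures without N6L and of the other sign in those with it. The log2 ratio was 0.20, 0.07 and 0.34 in non-treated cultures 1, 2 and 4 and -0.01, -0.23 and -0.33 in N6L cultures 1, 2 and 3, a difference of -0.392 between the group means. The value of N6L culture 1 was next to 0. As a contrast of the edgeR fit the difference was -0.44 ± 0.33 and was not called (adjusted p = 0.579), and Rab6b was present at 1.498 to 4.95 CPM in the cytoplasm.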

How the results depend on the processing

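In the cytoplasm, 12 Rab genes were called, and between 2 and 11 when one culture was left out (2 without N6L culture 2). In polysomes, 5 were called, between 1 and 7 with one culture left out, and 1 with only the libraries compared. Between polysomes and cytoplasm, the count in non-treated cells was 0, and 2 with the length and GC offset together with the replicate block by culture, an alternative added after seeing the data. In N6L-treated cells it was 13, 25 with the replicate block by culture, and between 2 and 14 with one culture left out (4 without N6L culture 3). The culture block changed the count of no other comparison between fractions by more than 1.5 times. The TI was called for 0 Rab genes under each alternative run, DESeq2, RLE size factors and the block included. Library size alone, RLE size factors, the absence of a filter, a filter of 10 counts in every library, DESeq2 and leaving out the replicates with conflicting labels kept each of these counts within 1.5 times.

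Among the named calls, a change of sign occurred only under the offset for length and GC: Rab24 in the cytoplasm (0.0311) and, between polysomes and cytoplasm with N6L, Rab8b (0.0387, and 0.0333 with the block), Rab24 (-0.11, and -0.11 with the block) and Rab27b (0.46, and 0.45 with the block, where it was called in the opposite direction, adjusted p = 0.00457). The causes were not tested. Between treatments, no source used here ties cultures of the same number together, and only numbers 1 and 2 are shared. Their deviations correlated by 0.228 and 0.045 in the cytoplasm and 0.296 and 0.008 in polysomes. With that number as a replicate block, 14 Rab genes were called in the cytoplasm and 5 in polysomes, but Rab37 in the cytoplasm and Rab20 in polysomes lost their call. Rab39b in both fractions, Rab6b in the cytoplasm and Rab17 between the fractions with N6L were called under each alternative in which they were tested.

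Of the Rab genes, 16 were under 1 CPM in the non-treated cytoplasm, and 9 had too few counts to be tested. In simulated counts, 13% of genes changed by log2 1 and 74% of those changed by log2 2 were recovered for the TI, so that most changes of the smaller size would not have been called.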
